A study of Mus musculus with 2 samples.

Results

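Heat shock proteins and chaperones are described here in ureter explants treated with BIO, an inhibitor of the kinase GSK3 that is used to activate canonical WNT signaling. The members are the genes of the probes whose name in both scanner files begins with Hsp followed by a, b, d, e, h or 9, with Dnaja, Dnajb or Dnajc and a digit, or with Cct and a digit, or reads Tcp1. The rule found 122 probes of 39429 and 83 genes of 29875 by name, and it used no measured value. Ureters came from wildtype NMRI mouse embryos at E12.5 and were kept for 18 h in serum-free medium that held either 10 µM BIO or DMSO, 2 parts in 1000, as the solvent control. RNA from pools of ureters was compared on 2 arrays with 2 colors, each carrying 1 BIO and 1 control RNA. BIO was labeled with AlexaFluor647 in replicate 1 and with AlexaFluor555 in the dye-swapped replicate 2. The explants hold the whole ureter, epithelium and mesenchyme together, and the sex of the embryos was not determined. Fewer cells of a type and less RNA per cell cannot be told apart in such RNA.

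Chaperones bind unfolded or partly folded proteins and help them reach or regain their structure. HSP70 proteins work in cycles of ATP hydrolysis that J-domain proteins (DNAJ) start and nucleotide exchange factors end, HSP90 proteins act late on kinases, receptors and other clients, small HSPs hold unfolded proteins without ATP, and the HSP60/HSP10 and CCT rings enclose a protein while it folds. Each compartment has its own set, so that cytosol, endoplasmic reticulum (ER) and mitochondria hold separate HSP70, HSP90 or J proteins. Heat and other stress in the cytosol induce a subset through the factor HSF1, and unfolded protein in the ER induces another through ATF6 and XBP1, which act on the ER stress response element.

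That element and the heat shock element are the sequences on which the description below is ordered, so they are shown first. The ER stress response element was searched as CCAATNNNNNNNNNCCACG, a CCAAT box and CCACG held 9 bases apart, on both strands of the RefSeq windows of assembly GRCm38.p6 from 250 bases before to 50 bases after a gene's start. It was found in 37 of 27025 genes with a window, 0.137%, and in 3 of the 68 members with a window, all of them chaperones of the ER. These stretches lie upstream of the start and are given in the direction of the gene, with the element in capitals. The stretch of Hspa5, chr2:34771960-34772079 on the plus strand, ran from base -130 to base -11.
Hspa5: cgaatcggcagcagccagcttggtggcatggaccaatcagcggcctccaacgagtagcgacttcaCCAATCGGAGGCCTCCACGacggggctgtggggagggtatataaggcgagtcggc
The stretch of Hsp90b1, chr10:86705515-86705664 on the minus strand, ran from base -220 to base -71 and held 2 elements, the second of them on the opposite strand.
Hsp90b1: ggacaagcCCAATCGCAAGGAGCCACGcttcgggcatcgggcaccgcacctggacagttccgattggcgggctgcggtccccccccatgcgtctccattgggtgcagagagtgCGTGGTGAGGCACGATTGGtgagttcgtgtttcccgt
The stretch of Dnajc3, chr14:118937802-118937921 on the plus strand, ran from base -130 to base -11.
Dnajc3: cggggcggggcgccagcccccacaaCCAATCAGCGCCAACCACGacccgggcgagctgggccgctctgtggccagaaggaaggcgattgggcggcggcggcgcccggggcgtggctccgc

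The heat shock element was searched as GAANNTTCNNGAA, 3 alternating units, on both strands. It was found in 179 of 27025 genes, 0.662%, and in 4 of 68 members, Hspd1, Hspe1, Hsph1 and Dnajb6. Hspd1 and Hspe1, the HSP60 and HSP10 of mitochondria, are neighbors that are read away from each other, and both windows hold the same site. The stretch between them is chr1:55087948-55088097 on the plus strand, base -200 to base -51 of Hspe1, and the capitals cover 2 overlapping matches on opposite strands.
Hspe1: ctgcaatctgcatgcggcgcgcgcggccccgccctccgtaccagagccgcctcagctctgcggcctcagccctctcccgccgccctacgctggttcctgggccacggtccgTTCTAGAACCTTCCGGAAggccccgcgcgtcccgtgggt
A match is a description of these letters and does not show that a factor was bound.

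Of the 83 member genes, 76 were tested at their brightest probe. The genes Cct8l1, Dnajb13, Dnajb8, Dnajc5b, Dnajc5g, Dnajc6 and Hspb3 were not tested because their brightest probe was not well above background in either the control or the BIO channel of both arrays. After treatment with BIO, 12 member genes fell and 2 rose in limma's moderated test at an adjusted p below 0.05, which is 15.8% and 2.63% of those tested. Over all 21574 genes tested, 14.8% fell and 9.13% rose, and 23.9% passed in either direction, so that the share of members that fell was near the background. The 12 that fell were Dnaja4, Dnajc28, Hspa12a, Hspb2, Hspa5, Hsp90b1, Dnajb9, Dnajb5, Dnajc3, Dnajb4, Dnajb2 and Dnaja1, and the 2 that rose were Dnajc9 and Dnajc27. With Feature Extraction's processed signals in place of normexp and loess the counts were 6 that fell and 2 that rose, with median centering they were 4 and 1, and in the deposited table they were 8 and 5.

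The changes were small. The median log2 ratio of BIO over control was -0.06 over the member genes, with -0.09 and -0.04 on the 2 arrays, and -0.01 over all genes tested. The median size of the log2 ratio was 0.51 for the members past the threshold and 0.57 for all genes past it. None of the 76 genes changed by 2-fold or more in the fit. A rule of at least 2-fold on both arrays with a minimum intensity, which the study used on its other arrays, also found 0 members higher and 0 lower, against 1.04% and 2.04% of all genes tested. Both arrays lay above 0 for 24 members and below 0 for 37, and they had opposite signs for 15. Counted by probe, 110 member probes were tested, of which 15 fell and 3 rose. Of all 28824 probes 23.2% passed the threshold, with 14.3% that fell and 8.95% that rose.

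In the ER, the HSP70 and the HSP90 of the lumen both fell. Hspa5, that HSP70 and also known as BiP, was read by a probe at chr2:34631913-34631972 in build mm9. It had processed signals of 43806 in the control and 27997 with BIO in replicate 1, and of 45326 and 32306 in replicate 2. The ratio lay below 0 on both arrays, as it did for 8228 of all 21574 genes tested. The log2 ratio of Hspa5 was -0.58 ± 0.11 (SE, n = 2), a 1.49-fold lower level, with an adjusted p of 0.00675 from limma. Hsp90b1, the HSP90 of the lumen also known as GRP94, was read at chr10:86153770-86153829. It had signals of 29051 and 20200 in replicate 1 and of 30621 and 21670 in replicate 2. Its log2 ratio was -0.54 ± 0.11 (SE, n = 2; limma adjusted p = 0.00889). The 2 arrays gave nearly the same ratio for both genes, -0.59 and -0.56 for Hspa5 and -0.53 and -0.56 for Hsp90b1. With median centering in place of loess neither gene passed the threshold, at -0.30 for Hspa5 and -0.34 for Hsp90b1.

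The ER holds its own J proteins, which bring clients to Hspa5. Dnajb9, which targets misfolded proteins for degradation, had signals of 2507 and 1831 in replicate 1 and of 2653 and 1930 in replicate 2. Its log2 ratio was -0.48 ± 0.11 (SE, n = 2; limma adjusted p = 0.0151), and a dimmer probe of the same gene also fell, by 0.49 on the log2 scale. The transcripts listed for that dimmer probe include one of Gm6568, so it may read both. Dnajc3, which binds Hspa5 and inhibits the kinase PERK, had signals of 641 and 481 in replicate 1 and of 679 and 514 in replicate 2. Its log2 ratio was -0.45 ± 0.11 (SE, n = 2; limma adjusted p = 0.0198), with -0.45 on each array. For both J proteins the ratio lay below 0 on both arrays, as it did for 8228 of all 21574 genes tested. With median centering neither passed the threshold, although the ratios were larger in size, -0.54 for Dnajb9 and -0.58 for Dnajc3. With processed signals neither passed it, at -0.46 and -0.41.

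Among the 8 members listed as induced by the unfolded protein response, these 4, or 50%, fell and 0 rose. Over all genes tested 14.8% fell and 9.13% rose. None of the 4 passed the threshold with median centering. The median log2 ratio of the 8 was -0.34, with -0.41 and -0.28 on the arrays. The other 4 did not pass the threshold. Hspa13, an HSP70-like ATPase of microsomes, was at -0.10 with a 95% interval from -0.35 to 0.15, and Dnajb11, a lumenal J protein, was at -0.24 with an interval from -0.51 to 0.03. Dnajc1, a J protein of the ER membrane, was at -0.04 and Dnajc10, a J protein with disulfide reductase domains, at 0.00. Of the 9 J proteins listed for the ER as a whole, Dnajb9 and Dnajc3, or 22.2%, fell against 14.8% of all genes tested, and none rose.

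**Figure D1:**
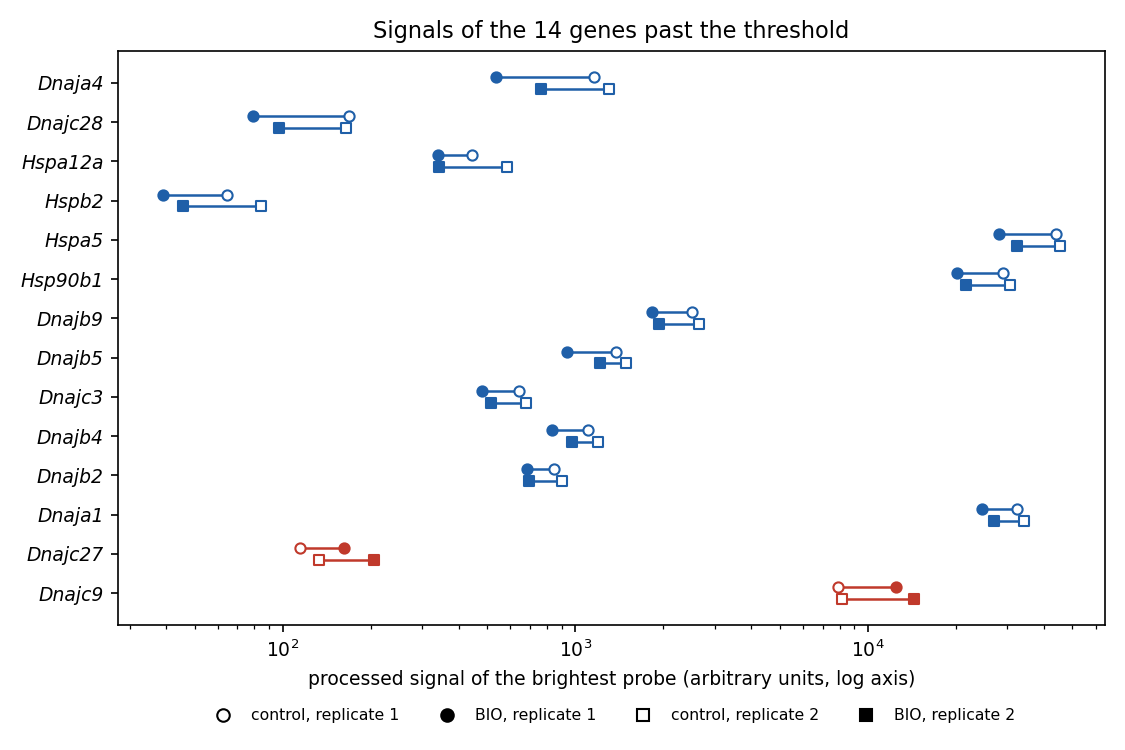
Processed signal of the brightest probe (horizontal log axis, arbitrary units) of the 14 member genes past the threshold (vertical axis), in both channels of both arrays; open symbols are control, filled symbols BIO, circles replicate 1 and squares replicate 2. Each BIO signal lies left of its control for the 12 genes in blue and right of it for Dnajc27 and Dnajc9; signals of different genes come from different probes and cannot be set against each other.

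Other genes of ER folding that lie outside the rule were listed to see how far the pattern went. Of 18 listed genes, 1 of which is the member Dnajc3, 5 fell and 0 rose, and the median log2 ratio was -0.23. The share that fell was 27.8%, against 14.8% of all genes tested. Calr, a lectin chaperone that binds calcium, fell by 0.71, Sdf2l1, a partner of ER J proteins, by 0.51, the disulfide isomerase Pdia6 by 0.49 and Creld2 by 0.43 on the log2 scale. Hyou1, an exchange factor of Hspa5, was at -0.32 without passing the threshold (limma adjusted p = 0.109). Sil1, another exchange factor of Hspa5, was at 0.15, above 0 on both arrays. Of the transcription factors of the response Xbp1, Atf4 and Ddit3 were on the list, and they did not pass the threshold at 0.01, -0.22 and 0.26. Atf6 was not on the list.

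The genes that hold the ER stress response element were then taken as a group. The letters of a promoter do not come from the arrays, but this comparison was added after values of the members had been seen. The group includes 3 members, so its choice is not independent of their values. Of the 37 genes, 24 were tested, of which 9 fell and 1 rose. That is 37.5% and 4.17%, against 14.8% and 9.13% of all genes tested. The median of the 24 was -0.11, with -0.30 and -0.11 on the arrays. With median centering 2 genes of the group fell and 1 rose, and 4 fell and 3 rose in the deposited table. Besides Hspa5, Hsp90b1 and Dnajc3, the genes that fell were Derl3, Ero1b, Calr, Pdia6, Alg12 and Creld2, all of which are known to act in the ER. Derl3, a component of ER-associated degradation, had processed signals of 102 and 27.1 in replicate 1 and of 111 and 34.4 in replicate 2, and a log2 ratio of -1.28 ± 0.12 (SE, n = 2; limma adjusted p = 0.00023). Ero1b, an oxidase that drives disulfide formation, fell by 0.75. Alg12, a mannosyltransferase of N-glycan assembly, fell by 0.44 on the log2 scale.

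The sites of the 6 genes outside the rule that fell, and of Canx, which did not pass the threshold, are shown for comparison with the member promoters above. They are read on the strand of the element, with the fixed letters in capitals.
Derl3, chr10:75893242-75893260: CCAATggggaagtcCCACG
Ero1b, chr13:12565682-12565700: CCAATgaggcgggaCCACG
Calr, chr8:84847075-84847093: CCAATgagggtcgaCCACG
Pdia6, chr12:17266491-17266509: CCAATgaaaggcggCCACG
Alg12, chr15:88819520-88819538: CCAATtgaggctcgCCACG
Creld2, chr15:88819520-88819538: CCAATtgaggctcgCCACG
Canx, chr11:50325800-50325818: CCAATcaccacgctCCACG
Alg12 and Creld2 lie on opposite strands and share 1 site, so they are not independent of each other. Canx, the membrane-bound relative of Calr, was at 0.07 with -0.04 and 0.19 on the arrays and a 95% interval from -0.19 to 0.34. Canx was 1 of 14 tested genes with the element that did not pass the threshold. Syvn1, another of them known to act in the ER, was at -0.18, with -0.16 and -0.19 on the arrays. Its 95% interval ran from -0.42 to 0.07. The gene that rose was 1700122E12Rik, at 0.85. Without the 3 members, 21 genes were tested, 6 fell and 1 rose, and the median was 0.00. That is 28.6% and 4.76%, against 14.8% and 9.13% of all genes tested. Dnajb9, which fell, has no match to these letters in its window.

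**Figure D2:**
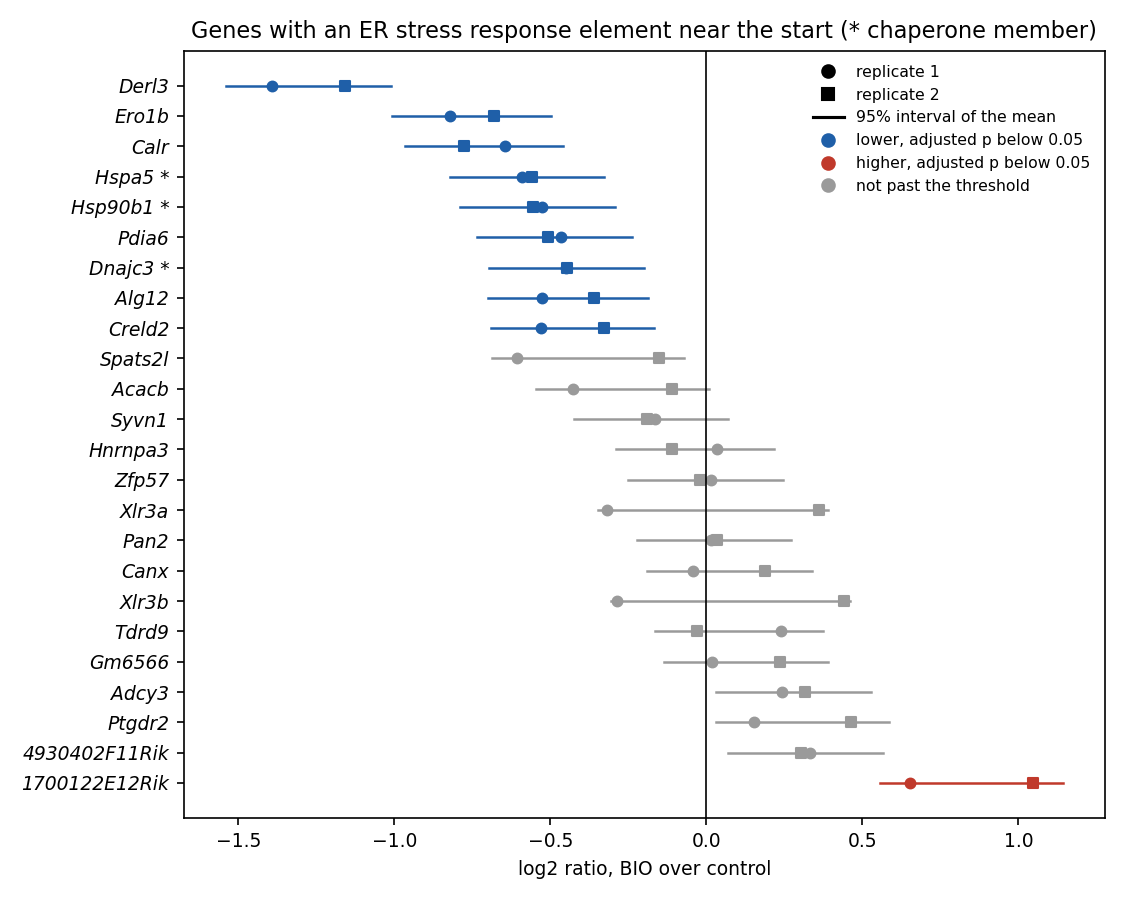
Log2 ratio of BIO over control (horizontal axis) of the 24 tested genes whose promoter window holds the ER stress response element (vertical axis, sorted by the mean); circles are replicate 1, squares replicate 2, lines the 95% interval of the mean, and asterisks mark members. The 9 genes in blue, from Derl3 at -1.28 to Creld2 at -0.43, fell, and 1700122E12Rik rose.

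The chaperones that heat induces, most of them in the cytosol, were listed as a second group. Of 12 such genes 11 are members, all tested, and Hspa1b had no probe of its own name. Of these 1, or 9.09%, fell against 14.8% of all genes tested, and 0 rose. An unadjusted p below 0.05 in limma was found for 5 of the 11, against 7919 of all 21574 genes tested. The median log2 ratio was -0.11, and it was -0.03 on the first array and -0.23 on the second. Both arrays lay below 0 for 6 of them and above 0 for 4. The 95% intervals of the 11 genes together spanned -0.61 to 0.55. The gene that fell was Dnaja1, a cytosolic J protein that serves Hspa8, with signals of 32411 and 24490 in replicate 1 and of 34130 and 26996 in replicate 2. Its log2 ratio was -0.37 ± 0.11 (SE, n = 2; limma adjusted p = 0.0419). It did not pass the threshold with median centering, at -0.14, or with processed signals, at -0.37, and its probes differed in call.

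Hspa1a, the stress-induced HSP70 and the usual readout of HSF1, had signals of 354 and 375 in replicate 1 and of 360 and 271 in replicate 2. The BIO signal was higher than control on 1 array and lower on the other, while the normalized log2 ratios were -0.03 and -0.44. Their mean was -0.24 with a 95% interval from -0.54 to 0.06. The transcripts listed for this probe are those of Hspa1a and of its neighbor Hspa1b, so the value belongs to both genes. Hspa1l, the next gene on the chromosome and a testis-type HSP70, was at 0.08. The probes of these neighbors are shown side by side, and binding of either to RNA of the other gene was not tested. At the best ungapped offset they share 42 of 57 overlapping bases, 73.7%, which are in capitals.
Hspa1a: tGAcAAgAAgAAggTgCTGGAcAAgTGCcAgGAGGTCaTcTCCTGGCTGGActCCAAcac
Hspa1l: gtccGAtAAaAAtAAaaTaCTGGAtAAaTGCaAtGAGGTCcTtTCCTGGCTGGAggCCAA

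Hspa8, the constitutive HSP70 of the cytosol, had signals of 53898 and 50922 in replicate 1 and of 65535 and 57103 in replicate 2, and a log2 ratio of -0.06 with an interval from -0.34 to 0.22. Its ratios were 0.10 and -0.23 on the arrays. Hspa2, known for its role in spermatocytes, was at -0.21 and Hspa14, which binds ribosomes, at 0.02. Of the atypical HSP70 proteins, Hspa12a fell and Hspa12b did not pass the threshold. Hspa12a had signals of 444 and 341 in replicate 1 and of 584 and 343 in replicate 2, with a log2 ratio of -0.61 ± 0.12 (SE, n = 2; limma adjusted p = 0.00742). It did not pass the threshold with processed signals, at -0.57. Hspa12b, which is known from endothelium, was at -0.26 with an interval from -0.51 to -0.01 (limma adjusted p = 0.125). All 8 endothelial markers listed fell, against 14.8% of all genes tested. Their median was -2.07, and their summed signal was 29091 and 35267 in the controls and 5247 and 10159 with BIO. Their part in the value of Hspa12b was not tested. Over all 10 tested HSP70 genes 2, or 20%, fell against 14.8% of all genes tested, and 0 rose. The median of the 10 was -0.16, with -0.11 and -0.18 on the arrays.

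The cytosolic HSP90 proteins did not pass the threshold. Hsp90aa1, the inducible form, had signals of 32602 and 33843 in replicate 1 and of 36106 and 41070 in replicate 2, and its log2 ratio was 0.13 with a 95% interval from -0.12 to 0.38. Hsp90ab1, the constitutive form, was at 0.15 with an interval from -0.17 to 0.47. Its ratio was 0.40 on the first array and -0.10 on the second. Neither interval reached the value of Hsp90b1. The difference between the genes was not tested. Of 19 listed co-chaperones of HSP90, 1, or 5.26%, fell against 14.8% of all genes tested, and 0 rose. It was Unc45b, a myosin chaperone of muscle, which fell by 0.44 on the log2 scale from dim signals of 21.9 and 32.6 in the controls to 9.19 and 19.0 with BIO.

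The HSP110 proteins, relatives of HSP70 that act as its exchange factors, did not pass the threshold. Hsph1 was at 0.19, Hspa4 at -0.05 and Hspa4l at -0.31 (limma adjusted p = 0.0738). An unadjusted p below 0.05 in limma was found for 1 of the 3, against 7919 of all 21574 genes tested. Among 13 listed exchange factors and partners of HSP70 outside the rule 2, or 15.4%, rose against 9.13% of all genes tested, and 0 fell. Bag4 rose by 0.44 and Grpel2, an exchange factor of mitochondrial HSP70, by 0.41 on the log2 scale. Its brighter relative Grpel1 was at -0.28, with -0.28 and -0.27 on the arrays, and did not pass the threshold.

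The factors that act on the heat shock element were also read. Hsf1, the main factor of the heat shock response, was at 0.08 and Hsf2 at 0.29, and neither passed the threshold. Hsf5, a factor known from testis, rose by 0.80, from 31.8 and 41.6 in the controls to 74.6 and 99.8 with BIO. Of 13 listed HSF1 targets outside the rule 2, or 15.4%, fell and 0 rose, and the median was -0.16, with -0.22 and -0.13 on the arrays. Cryab fell by 1.46 and Rgs2, a regulator of G protein signaling, by 0.68 on the log2 scale. The other 11 did not pass the threshold, and 4 of them lay above 0 on both arrays, up to 0.32 for Hmox1, the inducible heme oxygenase. Of the 179 genes with the heat shock element of 3 units in their window, 78 were tested, and 8 fell and 5 rose. That is 10.3% and 6.41%, against 14.8% and 9.13% of all genes tested, and the median was 0.01. None of the 4 members among them passed the threshold, with Hspd1 at 0.29, Hspe1 at 0.24, Hsph1 at 0.19 and Dnajb6 at -0.24. The 4 tested probes of Dnajb6 split in sign by their listed transcript. Those of the first were at -0.24 and -0.26, those of the second at 0.22 and 0.24, and the mean of all 4 was -0.01.

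A shorter form of 2 units, GAANNTTC or TTCNNGAA, which the longer element contains, was found in 17% of all genes and in 27.9% of the members with a window. It was found in 7 of the 9 heat-inducible members with a window. The core recognized by TCF/LEF factors, the DNA-binding partners of β-catenin, was searched as TCAAAG on both strands. It was found in 18.2% of all genes, in 13.2% of the members, in 0 of the 11 members with a window that fell and in 0 of the 2 that rose. These windows cover only the bases next to the start.

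In mitochondria, Hspa9, Hspd1 and Hspe1 lay above 0 on both arrays, and none of the 3 passed the threshold in limma. Dnaja3, a J protein listed for mitochondria, was at -0.05, with -0.15 and 0.04 on the arrays. Hspa9, the mitochondrial HSP70, had signals of 7195 and 9320 in replicate 1 and of 8012 and 9982 in replicate 2. Its log2 ratio was 0.30 with a 95% interval from 0.05 to 0.55 (limma adjusted p = 0.0796). Hspd1 had signals of 20728 and 24978 in replicate 1 and of 21287 and 27712 in replicate 2, with a log2 ratio of 0.29 and an interval from 0.04 to 0.55 (limma adjusted p = 0.0973). Hspe1 had signals of 35066 and 38157 in replicate 1 and of 36773 and 45558 in replicate 2, with a log2 ratio of 0.24 and an interval from -0.01 to 0.49. A ratio above 0 on both arrays, as for Hspa9, Hspd1 and Hspe1, was found for 7491 of all 21574 genes tested. A dimmer probe of Hspe1 rose by the test, at 0.51 ± 0.11 (SE, n = 2; limma adjusted p = 0.0118). With median centering the median of Hspd1 and Hspe1 was 0.50, against 0.26 as reported.

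Of 12 listed mitochondrial chaperones and proteases outside the rule, Grpel2, or 8.33%, rose against 9.13% of all genes tested, and none fell. Of the 7 tested J proteins listed for mitochondria, Dnajc28 fell and none rose. That is 14.3% that fell, near the 14.8% of all genes tested. Dnajc28 had signals of 169 and 79.3 in replicate 1 and of 165 and 97.5 in replicate 2, with a log2 ratio of -0.85 ± 0.12 (SE, n = 2; limma adjusted p = 0.0022). Its ratios on the arrays were -1.02 and -0.67.

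The cytosolic chaperonin CCT, which folds actin and tubulin, lay close to 0. Its 8 ring subunits (Tcp1, Cct2, Cct3, Cct4, Cct5, Cct6a, Cct7 and Cct8) had log2 ratios between -0.02 for Cct7 and 0.21 for Tcp1, with a median of 0.10. In limma 0 passed the threshold, against 23.9% of all genes tested. An unadjusted p below 0.05 was found for 0 of the 8, against 7919 of all 21574 genes tested. The 95% intervals of the 8 subunits together spanned -0.27 to 0.48. Tcp1 had signals of 24690 and 29420 in replicate 1 and of 25842 and 30544 in replicate 2, and Cct7 had 20970 and 21271 in replicate 1 and 21975 and 21896 in replicate 2. With median centering the median of the ring was 0.26. Cct6b, a testis-type relative, was at -0.24 without passing the threshold. Of 9 tested prefoldin and phosducin-like partners, which hand clients to the ring, none passed the threshold and 0 had an unadjusted p below 0.05.

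Of 8 small HSP genes 7 were tested, and Hspb2, a small HSP of muscle, was the 1 that fell. That is 14.3% of those tested, near the 14.8% of all genes tested. Hspb2 had dim signals of 64.8 and 39.0 in replicate 1 and of 84.4 and 45.6 in replicate 2, and a log2 ratio of -0.61 ± 0.11 (SE, n = 2; limma adjusted p = 0.00512). Its neighbor on the chromosome, Cryab, is a small HSP whose name the rule does not take. Cryab had signals of 1191 and 420 in replicate 1 and of 1289 and 488 in replicate 2 and fell by 1.46 on the log2 scale. Of the 8 smooth muscle markers listed 7, or 87.5%, fell against 14.8% of all genes tested. Their median was -0.86, and their summed signal was 18354 and 19507 in the controls and 8829 and 9955 with BIO. Their part in the change of these small HSPs was not tested.

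The other muscle-type small HSPs were not past the threshold. Hspb6 was at -0.17, with -0.44 and 0.09 on the arrays, and Hspb7 at -0.08. Hspb1, the widely expressed HSP27, had signals of 11272 and 8968 in replicate 1 and of 10994 and 9378 in replicate 2, and its log2 ratio was -0.32 with an interval from -0.57 to -0.06 (limma adjusted p = 0.0747). Hspb8, a partner of Bag3 in autophagy, was at -0.26 and the testis-type Hspb9 at -0.05. Hspb11, a subunit of intraflagellar transport, was at 0.27 (limma adjusted p = 0.119). In the family 4 of 7 had an unadjusted p below 0.05 in limma, against 7919 of all 21574 genes tested.

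The J proteins were 40 of the 76 genes tested, and 8 fell and 2 rose. That is 25% of the family, with 20% that fell and 5% that rose, near the 23.9%, 14.8% and 9.13% of all genes tested. The median was -0.12, with -0.18 and -0.05 on the arrays. Divided by type, 2 of 4 DNAJA genes fell, 4 of 11 DNAJB genes fell, and of 25 DNAJC genes 2 fell and 2 rose. DNAJA and DNAJB proteins are built like the bacterial DnaJ, in full or in part, whereas DNAJC proteins share only the J domain with it. All 4 DNAJA genes and 9 of 11 DNAJB genes had a mean below 0, against 11 of 25 DNAJC genes. The medians were -0.25, -0.24 and 0.01, and with median centering that of DNAJA was -0.10 and that of DNAJC -0.02.

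Of the 76 members tested, Dnaja4, a cytosolic J protein read at chr9:54564061-54564120, had the largest log2 ratio in size. It had signals of 1160 and 534 in replicate 1 and of 1301 and 761 in replicate 2. The log2 ratio was -0.96 ± 0.12 (SE, n = 2; limma adjusted p = 0.00118), a 1.95-fold lower level, and a dimmer probe fell by 0.62. Among the DNAJB genes, Dnajb5, a close relative of Dnajb1, had signals of 1376 and 934 in replicate 1 and of 1492 and 1213 in replicate 2, with a log2 ratio of -0.46 ± 0.12 (SE, n = 2; limma adjusted p = 0.0317). Dnajb4, of the same type, fell by 0.39 and Dnajb2, a J protein with ubiquitin-interacting motifs known from neurons, by 0.38 on the log2 scale. Dnajb1, the heat-inducible HSP40, had signals of 8484 and 7806 in replicate 1 and of 9105 and 9126 in replicate 2, and its log2 ratio of -0.11, with an interval from -0.36 to 0.15, did not pass the threshold. With median centering Dnajb5, Dnajb4 and Dnajb2 did not pass it either, at -0.55, -0.50 and -0.49, nor with processed signals, at -0.43, -0.35 and -0.34.

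The 2 genes that rose have roles outside bulk folding. Dnajc9, which also binds histones H3 and H4 and hands them to chromatin, was read at chr14:21204183-21204242. It had signals of 7898 and 12445 in replicate 1 and of 8187 and 14374 in replicate 2. Its log2 ratio was 0.68 ± 0.11 (SE, n = 2; limma adjusted p = 0.00373), a 1.61-fold higher level. All 12 cell cycle genes listed rose, with a median of 1.00, against 9.13% of all genes tested that rose. Their part in the value of Dnajc9 was not tested. Dnajc27, a Rab-like GTPase with a J domain, had signals of 114 and 162 in replicate 1 and of 133 and 205 in replicate 2, and its log2 ratio was 0.40 ± 0.11 (SE, n = 2; limma adjusted p = 0.0393). It did not pass the threshold with median centering, at 0.28.

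Of the 24 member genes with more than 1 tested probe, the probes differed in call in 4, Dnaja1, Dnajb2, Dnajc21 and Hspe1. No called probes of a gene differed in direction. A second probe of Dnajc21, a J protein of ribosome assembly, fell by 0.45, whereas its brightest probe was at -0.22. The pattern also caught Hspbp1, an exchange factor of HSP70, and Hspbap1, which bind HSPs and are not HSPs themselves. They were at 0.11 and -0.07.

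Other cell types of the explants were read from marker lists. Of the markers, 4 of 6 (66.7%) for erythroid cells and 4 of 7 tested (57.1%) for macrophages fell. For urothelium 5 of 8 (62.5%) and for ureteric mesenchyme 6 of 8 (75%) fell, and no marker of these lists rose. Over all genes tested 14.8% fell and 9.13% rose. The summed signal of the mesenchymal markers was 259651 and 285491 in the controls and 159081 and 177650 with BIO, and that of the urothelial markers 76185 and 77409 against 41823 and 49454. All of these markers but 1 of the macrophages were bright enough to be tested, those of urothelium and ureteric mesenchyme, the tissue on the labels, included. The share of spots well above background ran from 70.1% to 80.9% over the 4 channels, and among member probes from 87.7% to 93.4%. The plot of the called genes under each processing shows how far a value moved with the normalization.

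**Figure D3:**
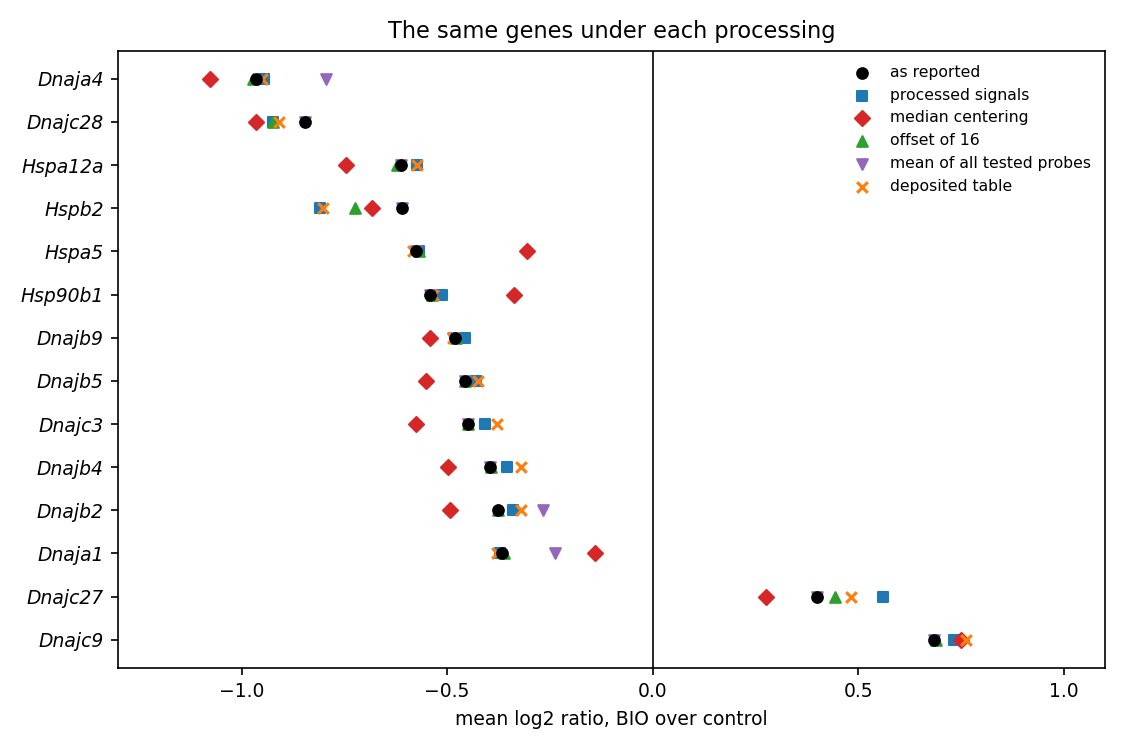
Mean log2 ratio of BIO over control (horizontal axis) of the 14 member genes past the threshold (vertical axis) under each processing, with 1 symbol per setting. All values of a gene lie on the same side of 0, and median centering moves Hspa5, Hsp90b1 and Dnaja1 toward 0, to -0.30, -0.34 and -0.14.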

How the data were processed

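RNA of BIO-treated and control ureter explants was compared on 2 Agilent arrays with 2 colors. Per the file headers, the authors quantified the scans with Agilent Feature Extraction 10.7.3.1 and deposited mean spot intensity, local background intensity and processed signal intensity, which Feature Extraction had background-subtracted and dye-normalized. They also deposited 1 rounded score per probe and array, which behaves as a fold change with a sign, BIO against control, with its centering unstated.

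Mean intensities were corrected by normexp with an offset of 50, normalized by loess within each array, averaged over the 4 spots of a probe and tested with limma 3.58.1 in R 4.3.3. The sign of replicate 2, where the dyes were exchanged, was turned. Both log2 ratios were tested against 0, two-sided, with Benjamini-Hochberg adjustment over 28824 probes at 0.05. Probes had to be well above background (over a share of 0.5 of their spots) in the control or the BIO channel of both arrays. The brightest probe stands for a gene. Intervals are 95% intervals of the moderated test. Signals printed are processed signals averaged over spots, in arbitrary units. The intensity and fold-change rule used a floor of 15, at least 2-fold on both arrays and an intensity of 100. The labels number the RNAs of each array. SE, intervals and p-values are moderated: they combine a probe's spread between the 2 arrays with a spread pooled over all tested probes. The pooled part had 7.14 prior degrees of freedom and a prior SD of 0.16, so an SE is not the spread of a gene's 2 ratios alone. They measure no spread beyond these 2 arrays. Both arrays lay on 1 slide.

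Named were all tested members outside the DNAJ family and the DNAJ genes past the threshold, with Dnajb1 and Dnaja3. DNAJ genes listed for the unfolded protein response, with the heat shock element or with probes that differed in call were named too. From other lists the genes past the threshold were named, with a few partners chosen after their values were seen. Members and lists were chosen with earlier results of these data known. RefSeq windows of GRCm38.p6 were matched by symbol for 68 of 83 members, and motifs were searched with both strands. Processed signals, median centering, an offset of 16, no filter, the deposited scores, the mean of a gene's probes and single arrays were tried as alternatives. The test was checked on simulated data. A gene of the list of HSF1 targets is not reported here.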

Additional observations from a re-analysis of the deposited data

How the results depend on the processing

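No member past the threshold changed direction under any alternative run. The calls of Dnaja4, Dnajc28, Hspb2 and Dnajc9, 4 of 14, held with processed signals, median centering, an offset of 16, no filter on dim probes and the mean of a gene's probes. Median centering lost 9 of the 14 calls and processed signals lost 7 (Dnaja1, Dnajb2, Dnajb4, Dnajb5, Dnajb9, Dnajc3 and Hspa12a). The deposited scores, rounded to 1 decimal, lost 11 and gained 10. The cause of these losses was not tested. Members that fell numbered 6 with processed signals and 4 with median centering. Members that rose numbered 1 with median centering, 1 without the filter and 5 in the deposited table. A 1.5-fold minimum in the fold-change rule gave 1 member higher and 2 lower, and without replicate 2 the rule gave 2 lower, against 0 without replicate 1.

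Median centering moved family medians to 0.39 for HSP90, 0.022 for HSP110, -0.24 for small HSPs, 0.50 for HSP60 and HSP10, -0.10 for DNAJA, -0.22 for all HSP70 and 0.26 for the CCT ring. Processed signals gave -0.0076 for HSP110, -0.15 for small HSPs and -0.22 for DNAJA. The deposited table gave 0 for all members and for HSP110, -0.12 for small HSPs and -0.22 for DNAJA. HSP110 was at -0.048 with an offset of 16, and with the mean of a gene's probes HSP110 was at 0.0089 and DNAJA at -0.20. With single arrays the median ran from -0.10 to 0.10 for HSP90, from -0.22 to -0.19 for small HSPs and from -0.078 to 0.043 for DNAJC.

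Of the genes with the ER stress response element, those that fell numbered 2 with median centering and 4 in the deposited table, and those that rose numbered 3 with processed signals, 2 with an offset of 16 and 3 in the deposited table. Of the genes with the heat shock element, those that fell numbered 4 with median centering and 3 in the deposited table, and those that rose numbered 2 with median centering and 9 with the mean of a gene's probes. The subset medians and these counts were chosen after seeing the data.

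No paired analysis was possible because the data hold a single comparison in which each array already pairs 1 BIO with 1 control RNA. A single array gives values with no test. Signal near background limits the dim genes Hspb2, Dnajc28 and Dnajc27.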
